A study of Mus musculus with 6 samples.

Results

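Accessible chromatin at 10 imprinted gene loci of the mouse kidney cortex was described from 1 pooled ATAC-seq peak list. The loci were Igf2, H19, Igf2r, Peg3, Kcnq1ot1, Cdkn1c, Meg3, Dlk1, Plagl1 and Mest, 7 protein-coding genes and 3 long noncoding RNA (lncRNA) genes on 5 chromosomes. Each locus ran from 10 kb upstream of the gene start to the gene end in GENCODE M39 on GRCm39. Every distinct peak interval that overlapped a locus was taken, which gave 85 intervals with 242 summits, out of 279569 intervals with 749750 summits in the list. Each interval carried the fold enrichment over background and the −log10 q of its highest summit. The fold enrichment is a linear ratio without a unit, and the q-value is the caller's error rate after correction for multiple testing.

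The study profiled kidney cortex of WT mice and of Acly cKO mice, which lack ATP-citrate lyase, the enzyme that makes cytosolic acetyl-CoA from citrate, in tubule cells. Mapped to a genotype here were 3 WT libraries (batches 1 and 2) and 3 Acly cKO libraries (batches 4 and 5), all labelled with the treatment Control. By the methods, Acly cKO mice were Acly fl/fl; Ksp-Cre, WT controls were Acly fl/fl littermates without Cre, so that both carried the floxed allele, and further WT libraries came from an earlier deposit. By its peak names the peak list is a single call on pooled libraries. Which libraries entered it, and whether the WT libraries deposited earlier were among them, is not shown. Every value below is therefore 1 pooled number without replicate error, and no test between genotypes or between loci was possible. Ksp-Cre (Cdh16-Cre) recombines across the tubule epithelium, so other cortical cells keep Acly. The age of the mice profiled by ATAC-seq is not given in the sources used here.

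Imprinted genes are expressed from 1 parental chromosome according to DNA methylation set in the germ line at imprinting control regions. At a control region the methylated copy is typically packed into closed chromatin, and the other copy is free to bind transcription factors. CTCF binds the unmethylated maternal control region upstream of H19 and insulates Igf2 from enhancers beyond it. YY1 binds repeated sites in intron 1 of Peg3. ZFP57 binds the methylated copy of most control regions and maintains the mark after fertilization. Many imprinted genes act on fetal growth and are silenced in most organs after birth. A pooled ATAC-seq signal does not separate the parental chromosomes, and an accessible copy in few cells cannot be told apart from a weakly accessible copy in many.

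The sequences below show the motif matches that lay inside intervals at these loci. All are read from GRCm39 on the strand of the gene, 5′ to 3′. The first set is the region upstream of H19, where the CTCF core GGNGGCAG directly preceded by the letters CCGCGN was found at 3 positions. They were searched on both strands, and the 14 matching letters are in capitals in 40 bases of chr7:142135758-142135797, chr7:142134488-142134527 and chr7:142134033-142134072. Their centres lay 3892, 2622 and 2167 bp before the H19 start that most transcripts use, which here means the start shared, within 50 bp, by the largest number of annotated transcripts. All 3 ran in the direction of H19 transcription.
H19 farthest from the start: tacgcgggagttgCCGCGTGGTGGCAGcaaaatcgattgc
H19 middle: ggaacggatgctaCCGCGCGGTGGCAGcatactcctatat
H19 nearest to the start: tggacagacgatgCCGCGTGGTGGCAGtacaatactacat

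The second sequence is a stretch of Peg3 intron 1, clear of protein-coding exons, with the most YY1 core matches (GCCATNTT, both strands searched) for its length, at chr7:6730671-6730970 on the minus strand. The 3 matches are in capitals. All of them read in the direction of Peg3 transcription.
Peg3 intron 1: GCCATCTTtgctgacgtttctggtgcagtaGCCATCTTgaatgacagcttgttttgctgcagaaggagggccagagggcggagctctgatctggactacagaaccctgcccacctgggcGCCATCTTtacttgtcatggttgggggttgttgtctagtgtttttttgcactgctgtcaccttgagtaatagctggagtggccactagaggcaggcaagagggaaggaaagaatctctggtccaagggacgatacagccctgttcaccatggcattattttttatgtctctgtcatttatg

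The third set holds the stretches with the most ZFP57 core matches (TGCCGC, both strands searched, so that GCGGCA marks a match on the other strand) among those clear of protein-coding exons in the intervals of Mest, Plagl1 and the Airn start inside Igf2r. They are chr6:30737577-30737816 on the plus strand, chr10:12966806-12967005 on the plus strand and chr17:12961079-12961278 on the minus strand. The matches are in capitals and number 3, 4 and 3. Matches in the Mest exon at the start, where they are closer together, are not shown.
Mest: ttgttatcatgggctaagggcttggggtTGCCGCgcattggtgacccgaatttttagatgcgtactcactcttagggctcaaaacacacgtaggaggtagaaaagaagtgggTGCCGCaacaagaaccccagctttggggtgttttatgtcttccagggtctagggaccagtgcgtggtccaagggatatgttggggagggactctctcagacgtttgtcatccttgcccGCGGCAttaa
Plagl1: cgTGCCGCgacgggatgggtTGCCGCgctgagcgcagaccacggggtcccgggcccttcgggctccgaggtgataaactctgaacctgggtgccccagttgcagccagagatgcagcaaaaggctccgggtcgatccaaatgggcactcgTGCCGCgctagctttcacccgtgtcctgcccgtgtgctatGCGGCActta
Igf2r, near the Airn start: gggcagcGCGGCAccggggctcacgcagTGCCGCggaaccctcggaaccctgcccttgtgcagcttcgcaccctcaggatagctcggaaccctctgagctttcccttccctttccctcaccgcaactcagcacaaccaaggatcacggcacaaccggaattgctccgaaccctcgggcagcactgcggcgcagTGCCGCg

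The last set contrasts the highest summits at the starts of Kcnq1ot1, Cdkn1c and Igf2r with the start of Meg3, which had no interval. The first 3 are 101 bases centred on the summit, at chr7:142850311-142850411, chr7:143014845-143014945 and chr17:12988628-12988728, all on the minus strand. The Meg3 sequence is the 150 bases before the start most of its transcripts use, at chr12:109506732-109506881 on the plus strand. A CTCF core match in the Cdkn1c sequence is in capitals. No CTCF core, YY1 core or ZFP57 core was in the other sequences.
Kcnq1ot1: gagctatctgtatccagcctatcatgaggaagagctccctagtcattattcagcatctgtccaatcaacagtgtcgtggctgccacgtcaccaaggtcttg
Cdkn1c: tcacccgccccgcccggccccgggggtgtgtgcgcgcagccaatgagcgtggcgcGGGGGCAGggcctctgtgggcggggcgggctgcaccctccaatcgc
Igf2r: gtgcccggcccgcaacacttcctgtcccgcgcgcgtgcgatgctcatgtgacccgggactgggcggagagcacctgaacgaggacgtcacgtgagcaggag
Meg3: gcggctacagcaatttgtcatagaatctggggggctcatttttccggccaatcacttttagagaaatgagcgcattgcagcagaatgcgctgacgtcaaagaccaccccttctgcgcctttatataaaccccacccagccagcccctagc

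Of the 10 loci, 9 held at least 1 interval. Meg3 was the locus without one. Among all protein-coding genes, measured over loci built in the same way, 85.6% of 21757 had an interval, and among lncRNA genes 79.2% of 32884 had one. The strongest interval was in Peg3, with a fold enrichment of 58.9. At Kcnq1ot1, Plagl1, Igf2r and Cdkn1c the highest value lay between 17.5 and 21.0, and Mest reached 7.14. Igf2, Dlk1 and H19 reached only 3.86, 3.54 and 3.34. The plot of intervals along each gene shows the highest value of Kcnq1ot1, Plagl1, Igf2r and Cdkn1c at a summit 34 to 89 bp before a start. Values of at least 5 away from the starts were found upstream of Cdkn1c, between and beyond the starts of Plagl1, and in introns of Igf2r and Kcnq1ot1.

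**Figure D1:**
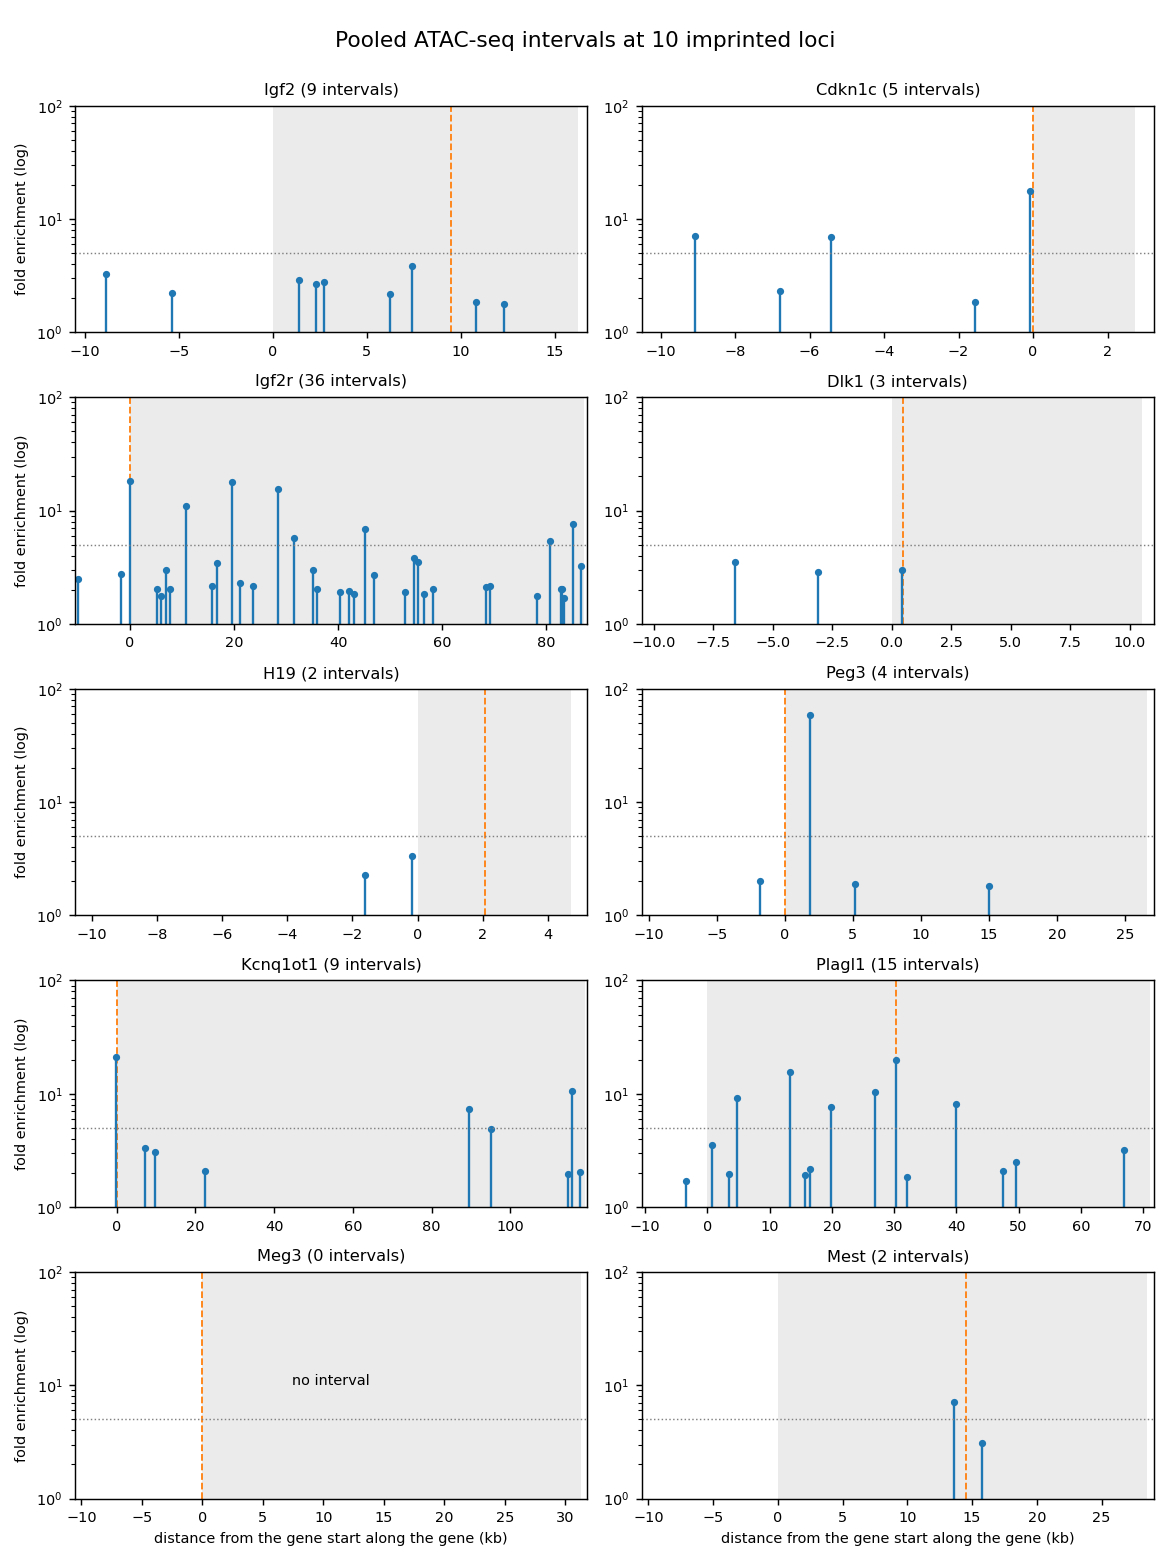
Intervals at the 10 loci, each drawn at its highest summit. The horizontal axis is the distance in kb from the gene start along the gene, the vertical axis the fold enrichment on a log scale, the grey area the gene, the orange dashed line the start most transcripts use and the dotted line a fold enrichment of 5. Peg3 shows 1 tall interval of 58.9 in its 5′ part, Igf2r carries 36 intervals along its body, and Meg3 has none.

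Most of the 85 intervals were weak. A fold enrichment of at least 5 was found in 22 intervals, 25.9% (95% Wilson interval 17.8% to 36.1%, counting error only), against 24.5% of all 279569 intervals, so the share was near the background. The Wilson interval counts the 85 intervals as independent, which intervals of the same locus are not. A fold enrichment of at least 10 was found in 11 intervals, 12.9%, and 46 lay under 3. Over all intervals a fold enrichment of 10.4 stood at percentile 88.3 and one of 3.01 at percentile 59.5. Both counts were therefore near the background. The median fold enrichment was 2.75 at the loci and 2.55 over all intervals, and the median −log10 q was 7.25 against 5.91. The median width was 383 bp against 434 bp. Igf2r alone held 36 of the intervals, of which 22 lay under a fold enrichment of 3.

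**Figure D2:**
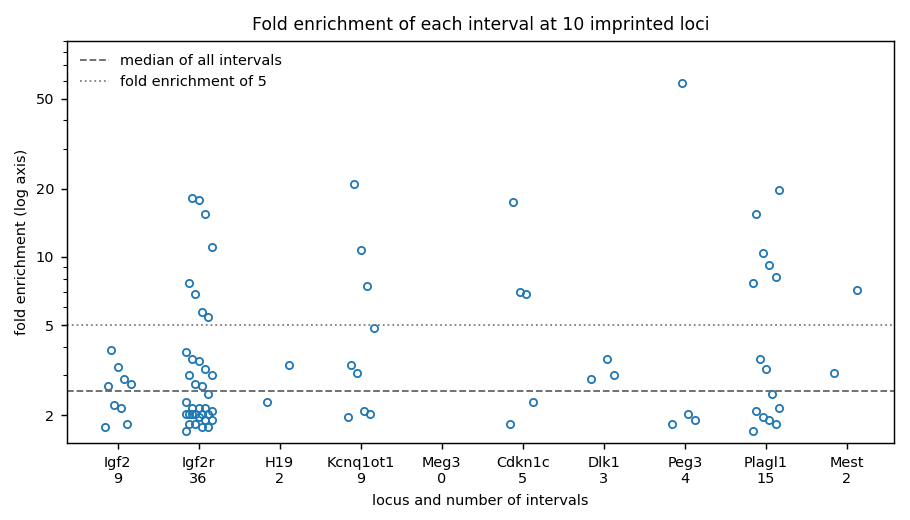
Fold enrichment (log axis) of each of the 85 intervals, 1 circle each, by locus, with the number of intervals under each name. The dashed line is the median of all intervals, 2.55, and the dotted line a fold enrichment of 5. Igf2, H19 and Dlk1 stay below 5 throughout, while Peg3 has 1 interval at 58.9 and the rest at or below 2.03.

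Ranked by their highest interval, the members other than Peg3 stood below the middle of protein-coding genes. Of the 10 members, 3 are lncRNA genes. The median over the 10 members, with Meg3 at 0, was a fold enrichment of 12.3. It was 26.3 over protein-coding genes and 7.33 over lncRNA genes. Only Peg3 was above the protein-coding median. The median percentile of the members was 33.0, from 7.19 for Meg3, a rank it shared with all genes without an interval, to 86.5 for Peg3. With lncRNA genes added to the background, the median percentile was 48.7, near the middle. Against lncRNA genes, the lncRNA members Kcnq1ot1, H19 and Meg3 were at percentiles 72.8, 33.7 and 10.4. The members also held fewer intervals at the median, with 4.5 against 6 per protein-coding gene, and 1.41 against 1.81 intervals per 10 kb. The median of lncRNA genes was 1.36 per 10 kb. By this density Igf2, Igf2r and Cdkn1c were at percentiles 76.9, 80.8 and 83.9 among protein-coding genes. Plagl1 was at 50.8, and the other members were between 7.19 and 43.3. Intervals covered a median of 11.7% of a member locus and 15.8% of a protein-coding gene's. These are descriptions of a list of 10 genes and carry no test.

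**Figure D3:**
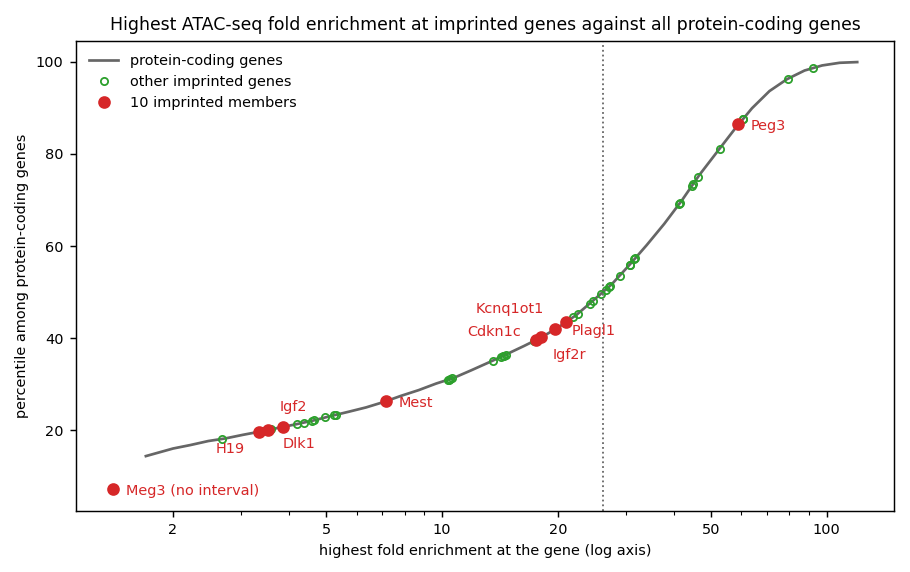
Highest fold enrichment of a gene's intervals (log axis) against its percentile among protein-coding genes, for the 10 members (red), 46 other imprinted genes (green circles) and all protein-coding genes (grey line, with their median of 26.3 dotted). Meg3 has no interval and is drawn at the left edge of the axis. Peg3 is the member to the right of the median.

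Peg3 encodes a zinc finger protein expressed from the paternal copy. Its main interval, chr7:6729281-6734252, was 4972 bp wide and held 10 summits that ran from 582 bp before the gene start to 3911 bp after it. The highest summit stood 1852 bp into the gene, in intron 1, with a −log10 q of 1231. The summit next to the start, 4 bp before it, had a fold enrichment of 19.2. From there the values were 38.7 at 869 bp, 58.9 at 1852 bp, 55.6 at 1966 bp, 49.8 at 2526 bp and 36.1 at 2837 bp. They dropped to 5.11 at 3582 bp. The most accessible stretch of Peg3 was therefore not its start but the next kilobases of intron 1. The interval also holds the start of Usp29, which is transcribed in the opposite direction from 109 bp before the Peg3 start, so the signal at the start belongs to both genes. The other 3 Peg3 intervals had fold enrichments of 1.83, 1.90 and 2.03.

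That interval held 12 YY1 core matches, between 876 and 3164 bp from the Peg3 start, all of them in the direction of Peg3 transcription. No window of this length around a protein-coding start held as many. These windows are centred on the start, whereas the Peg3 interval lies mostly inside the gene. One centred on the Peg3 start would leave out its matches at 2501, 2531, 2620, 3042 and 3164 bp. Peg3 itself would thus not reach 12 by that measure. At least 1 match was in 60.0% of those windows, and the median window held 1. Among all intervals, extended to the same length around their highest summit, 0.00501% held as many. The 5 summits with fold enrichments from 36.1 to 58.9 fell in the stretch spanned by the matches, the outermost of them 7 bp short of its first match centre. The nearest match centre was 126 bp from the highest summit, so the 101 bases around that summit hold none. The same interval held 8 ZFP57 core matches, between 299 and 1943 bp, and 0.211% of the promoter windows held as many.

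**Figure D4:**
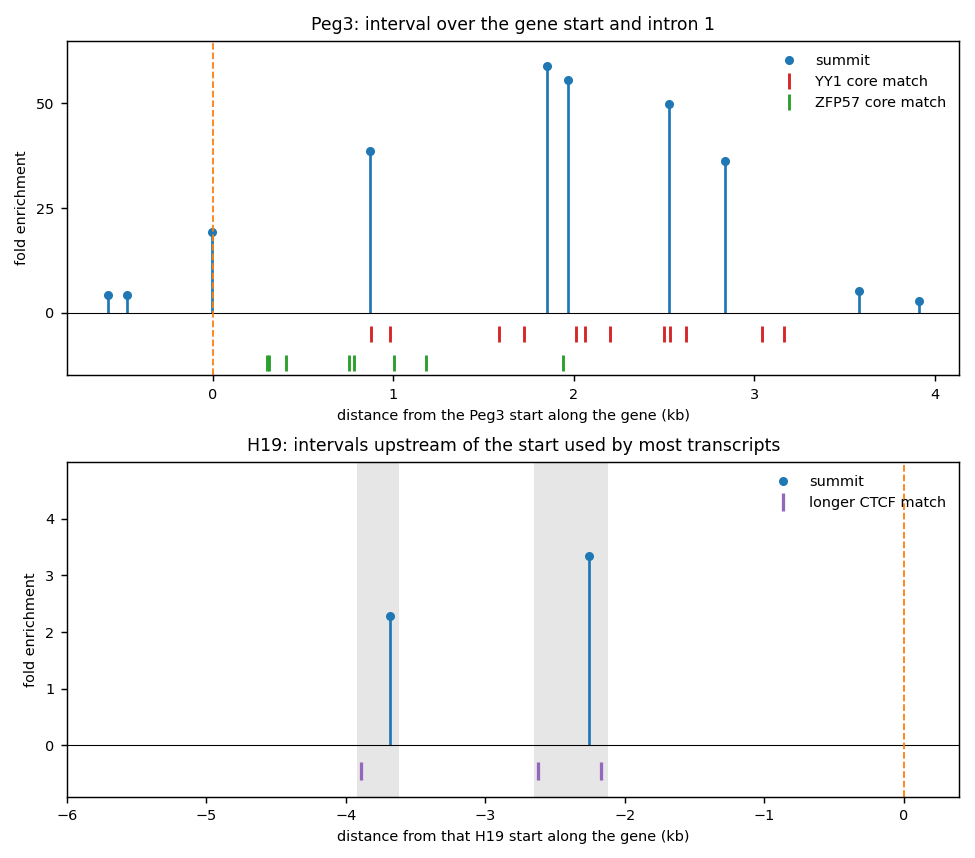
Summits and motif matches at Peg3 (top) and upstream of H19 (bottom), by distance in kb along the gene from the start most transcripts use (orange dashed line). Blue points give the fold enrichment of each summit, ticks below the axis the centres of motif matches, and grey areas the 2 H19 intervals. At Peg3 the 12 YY1 matches span the stretch of the summits of 36.1 to 58.9, and at H19 each longer CTCF match lies inside an interval.

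The H19 and Igf2 loci adjoin on chromosome 7, where a maternally expressed noncoding RNA and a paternally expressed fetal growth factor share enhancers. H19 had 2 intervals, both before its start. The nearer, chr7:142134003-142134537, had a fold enrichment of 3.34, and the farther, chr7:142135503-142135805, had 2.29. Their summits lay 2256 and 3683 bp before the start used by 16 of 21 H19 transcripts, and nothing was called within 1 kb of that start or in the gene. The gene record begins 2072 bp before that start, so the nearer interval counts as a start interval by the gene record. The 3 longer CTCF matches printed above were the only ones in the H19 locus, and all 3 were inside these intervals, 2 in the nearer and 1 in the farther. A match of this length was in 0.0322% of promoter windows as long as the nearer interval. Its letters were set by choice, and a sequence of this length is rare anywhere. The share is therefore a description of the search and no evidence about H19. The shorter core GGNGGCAG is common, at 22.3% of these windows. It was found 2 times in the nearer interval, as many as in 3.78% of windows, and 3 times in the farther, as many as in 0.179% of windows of its length. In 2 of the 3 matches the bases TG stand just before, so that a ZFP57 core overlaps the CTCF match.

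The longer CTCF sequence occurred 58 times on the chromosomes analysed, and 45 of these positions (77.6%) were in an interval. Without the 3 at H19, 42 of 55 positions (76.4%) were in an interval, with a median fold enrichment of 23.0 and quartiles of 8.45 and 45.8. Of these 42, 5 (11.9%) had 3.34 or less.

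Igf2 had 9 intervals, with fold enrichments from 1.77 to 3.86 and none of at least 5. The strongest, chr7:142212502-142213603 with a −log10 q of 16.5, lay 2063 bp before the start most transcripts use, over the start of the antisense transcript Igf2os. The other intervals were between 1.77 and 3.27. By its strongest interval Igf2 was at percentile 20.7 among protein-coding genes. No interval came within 1 kb of the start of the Igf2 record, and the nearest was 1159 bp from it, at 2.88. Igf2 has several alternative starts, and the one named here as used by most transcripts was shared by only 2 of 14, with the nearest interval 1023 bp away, at 1.83. Igf2 thus had several weak intervals in its 5′ part and none within 1 kb of either of these starts. Starts elsewhere in the record were not checked. Igf2 intervals per 10 kb, at 3.44, were above the protein-coding median.

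Igf2r encodes the receptor that clears IGF2 from the cell surface and is expressed from the maternal copy in mice. Its promoter interval, chr17:12984426-12989688, held 18 summits, and the highest, 64 bp before the start, reached a fold enrichment of 18.1 (−log10 q of 242). A summit 44 bp after the start had 17.0. The start of Airn, the paternally expressed antisense RNA that silences Igf2r, lies in Igf2r intron 2 inside chr17:12958539-12963664. The highest summit there was 7 bp from the Airn start, with 15.5 in fold enrichment and 190 in −log10 q. Both promoters of the pair were therefore called, at 18.1 and 15.5. Between them, in intron 1, stood an interval of 17.9 at chr17:12967877-12970873 and one of 11.0 at chr17:12973146-12979431. In all 8 of the 36 intervals had a fold enrichment of at least 5, and intervals covered 39.5% of the locus. Near the end of the gene, intervals of 7.66 and 5.43 lay in introns 47 and 43.

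Kcnq1ot1 is the paternally expressed antisense RNA that silences Cdkn1c and other genes of its cluster. Its start interval, chr7:142848535-142851104, reached 21.0 in fold enrichment and 298 in −log10 q, with the highest summit 34 bp before the gene start. The next summits along the gene reached 6.81, 4.26, 3.99 and 2.62, so the signal fell off within the interval. Across the rest of the 128926 bp locus, which lies inside Kcnq1, values of at least 5 were found at 10.7 and 7.40, which were 115653 and 89360 bp from the start. Kcnq1ot1 had 0.698 intervals per 10 kb, and intervals covered 4.75% of its locus.

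Cdkn1c encodes the cyclin-dependent kinase inhibitor p57, which in the adult kidney is known from podocytes. The interval at its start, chr7:143012584-143015899, had a fold enrichment of 17.5 at a summit 89 bp before the start. It held 3 CTCF core matches, the one printed above among them, and 19.6% of promoter windows of its length held as many. The 4 further intervals lay upstream, and 2 of them had values of at least 5, namely 6.87 at 5425 bp and 7.01 at 9066 bp before the start. Intervals covered 62.5% of the locus, the highest share among the 10 members, on a locus of 12738 bp. Against protein-coding genes whose locus length was within 2 times its own, Cdkn1c was at percentile 54.0, and at 39.6 against all.

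Dlk1, a paternally expressed Notch-like membrane protein, and Meg3, a maternally expressed noncoding RNA, form a cluster on chromosome 12. Dlk1 had 3 intervals, at 3.54, 2.88 and 3.01. The last, chr12:109419050-109419808, covered the start used by most transcripts with a summit 42 bp before it. Meg3 had no interval from 10 kb upstream to its end, and none with 25 kb upstream. The nearest interval to its start was 45551 bp away, at a fold enrichment of 2.10. The list of summits before blacklist filtering held none in the Meg3 locus either. An absent interval means that no signal passed the caller's threshold in the pool, not that the region was closed. The promoter bases printed for Meg3 lie in a window of 500 bp on each side of the start with a CpG observed-to-expected ratio of 0.519, against a median of 0.572 over protein-coding starts.

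Plagl1 encodes a zinc finger growth regulator, and Mest a protein of the hydrolase fold, both expressed from the paternal copy. Plagl1 had 15 intervals, and 6 of them had a fold enrichment of at least 5. The strongest, chr10:12965686-12967458, had 19.7 at a summit 82 bp before the start most transcripts use, in the promoter that lies 30328 bp inside the gene record. The interval at the start of the record itself had 3.54. Further intervals of 15.5, 10.4, 9.23 and 7.66 lay between these starts, at 13242, 26890, 4830 and 19908 bp into the record, and one of 8.18 lay in intron 1 beyond them. Mest had 2 intervals. The larger, chr6:30736487-30738446, covered the start most transcripts use, but its highest summit, at 7.14, was 921 bp before that start, and the summit 89 bp after the start had 4.58. The Mest record begins 14498 bp upstream, and no interval was within 1 kb of that position.

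The ZFP57 core was dense in the intervals at these 2 genes. The Mest interval held 11 matches in 1960 bp, and 0.0138% of promoter windows of that length held as many, against 42.0% with at least 1. The Plagl1 interval held 6 matches, with 0.331% of windows holding as many and 40.8% holding at least 1. The Airn interval held 8, as many as 0.211% of windows. Kcnq1ot1 held 3, as many as 8.02% of windows, so its count was not unusual. A match gives the letters only and does not show binding or methylation.

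By the gene record, 7 of 10 members had an interval within 1 kb of the start, all but Igf2, Meg3 and Mest. The background was 74.3% of protein-coding genes and 53.5% of lncRNA genes. By the start most transcripts use, 7 of 10 had one as well, and the members without one were Igf2, H19 and Meg3, against 75.3% of protein-coding and 53.4% of lncRNA genes. Both shares were near the protein-coding background. The intervals at the latter starts were weaker than most. Their median fold enrichment was 18.1, and over the 16388 protein-coding genes with such an interval it was 30.2, with quartiles of 12.4 and 48.5. Percentiles among these were 85.2 for Peg3, 36.2 for Kcnq1ot1, 34.4 for Plagl1, 32.3 for Igf2r, 31.6 for Cdkn1c, 17.1 for Mest and 7.19 for Dlk1. They take each interval's highest summit, which lay 1852 bp after the start at Peg3 and 921 bp before it at Mest. The summits nearest to the Peg3 and Mest starts had 19.2 and 4.58. CpG content is given beside these values as a description. The 1 kb around the Dlk1 start had a CpG observed-to-expected ratio of 0.818 with a weak interval, and that around the Peg3 start had 0.603. The highest Peg3 summit lay outside that 1 kb. Igf2, without an interval within 1 kb of the start used here, had a ratio of 0.208.

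The tissue label was compared with the same peak list. The markers reported here of the proximal tubule, thick limb, collecting duct, podocytes, endothelium and immune cells had an interval within 1 kb of their start. Over protein-coding genes 74.3% had one. The values ran from a fold enrichment of 1.90 at Ptprc to 33.1 at Lrp2. Among genes of other organs, Myh6 had none, and Ins1, Neurod1 and Alb had one of 1.96 to 2.95. Elsewhere in its locus Alb reached 21.0. The start interval of the podocyte gene Nphs1, at 2.88, fell in the range of these genes of other organs. Start intervals thus did not separate all kidney markers from them. The Dlk1 start interval, at 3.01, was close to those of Nphs1 and Alb. The part of cell type shares in these values was not tested.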

How the data were processed

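ATAC-seq libraries of 3 WT and 3 Acly cKO kidneys were mapped to a genotype by their labels. Per the methods and the processing notes, the authors used fastp for trimming, Bowtie2 2.3.4.3 for alignment to mm39 and MACS3 3.0.0 for calling peaks from deduplicated, uniquely mapped reads, and dropped blacklisted regions with bedtools 2.29.1. The deposited list gives for each summit a fold enrichment (a linear ratio), the −log10 q and a score derived from it by the authors, and the summit's distance from the interval start. The peak names give a pooled call and no library names, so membership of the pool is not shown, per-library depth is unknown, and neither replicate errors nor tests could be given. Fold enrichments at the loci were whole multiples of 0.0655 within 5% of a step for all 85 intervals.

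Rows with the same chromosome, start and end were merged, keeping the summit with the highest −log10 q. Positions are counted from 1 on GRCm39, the build named by the authors, and 73.8% of 21757 protein-coding genes had a summit within 1 kb of their start. The start most transcripts use was the one with the most transcript starts within 50 bp. Motif windows were centred on gene starts or summits and counted on both strands, overlaps included. Promoter windows covered all 21757 protein-coding genes. RefSeq promoter tables were on another build, so sequences were read from the GRCm39 genome. The members and gene lists were chosen with earlier results of these data known, and every member is named. Of the tissue markers, 2 genes are not reported here. Scripts were tested on simulated data, where all 200 simulated loci and all 300 planted motifs were recovered. Software was pysam 0.24.0, scipy 1.17.1, matplotlib 3.10.9, pandas 2.3.3 and numpy 2.4.6 under Python 3.11.15.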

Additional observations from a re-analysis of the deposited data

How the results depend on the processing

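Of 30 alternatives, 23 kept the value within its limit, which was 1.5 times the reported value, or for a share the Wilson interval. The 85 intervals became 47 at q under 1e-05, 22 at a fold enrichment of at least 5, 242 when summits were counted and 49 without Igf2r, the last chosen after seeing the data. Over all intervals the median −log10 q was 5.91, so the larger part of the whole list passes q under 1e-05 too. Members with a start interval went from 7 to 4 when a fold enrichment of at least 5 was required. This count uses the start of the gene record. By the start most transcripts use, all member start intervals had at least 7.14, except Dlk1 at 3.01. The share of all protein-coding genes at this floor was not computed. Their intervals at the latter starts had a lower quartile of 12.4. The share of intervals went from 25.9% to 12.9% when the fold enrichment had to reach 10. Over all intervals a fold enrichment of 10.4 stood at percentile 88.3, so this share too was near the background. The CTCF core matches in the nearer H19 interval went from 2 to 1 within 200 bp around its summit. The median highest fold enrichment ranged from 12.3 to 17.5, the upper end being the value without Meg3, an alternative added later. The median percentile was 48.7 with lncRNA genes added to the background and 28.1 among genes of like locus length. At q under 1e-05, all 9 loci with an interval still held one. The share of all genes that do so was not computed. Of 30 further counts per locus, 12 moved by over 1.5 times. Without upstream sequence and with 25 kb of it, Cdkn1c had 1 and 10 in place of 5, Dlk1 had 1 and 7 in place of 3, and H19 had 0 and 4 in place of 2. At q under 1e-05 the counts were 5 for Igf2, 17 for Igf2r, 1 for H19, 3 for Cdkn1c, 1 for Peg3 and 9 for Plagl1. The start most transcripts use was likewise an added choice. No paired analysis was possible because a single call pooled the libraries, and for the same reason no replicate could be left out. Pooled depth is not known here, and its part in the weak intervals at H19, Igf2 and Dlk1 and in the absence at Meg3 was not tested.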

Other observations

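A wider list of 48 imprinted genes, of which 46 were matched in the annotation, held an interval at all 46, and 40 had one within 1 kb of the gene start. Over protein-coding genes these shares were 85.6% and 74.3%. The list shares intervals with the members. The strongest intervals of Usp29 and Kcnq1 were those of Peg3 and Kcnq1ot1, and the Airn start interval lies in Igf2r. The median of the highest fold enrichment was 22.2, at a median percentile of 44.9 among protein-coding genes. Of the 46, 19 were above the protein-coding median, Usp29 among them with the Peg3 interval. Ube3a, a ubiquitin ligase imprinted in neurons, reached 92.4, Trappc9 reached 79.2, and Cd81 and Tssc4 shared an interval of 60.5. At the low end were Rtl1 with 2.68, the insulin gene Ins2 with 3.40 and Magel2 with 3.60. In the cluster of Dlk1 and Meg3, the noncoding RNAs Mirg and Rian reached 24.2 and 10.3 and the deiodinase gene Dio3 reached 10.6, while the 77614 bp between Dlk1 and Meg3 held 1 interval, at 2.10.

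Between the H19 and Igf2 genes, 3 intervals belonged to neither locus. The strongest of them, chr7:142149827-142150269, had a fold enrichment of 5.63 and lay 16201 bp before the start of the H19 record. The 161741 bp between Kcnq1ot1 and Cdkn1c held 21 intervals outside both loci, 4 of them with a fold enrichment of at least 5 and the strongest at 7.59.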
